A study of Mus musculus with 16 samples.

Results

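The collagen genes were taken as the rows of the deposited expression matrix whose gene name is Col, a number, the letter a and a number. They numbered 43 of the 17883 genes in the matrix. The set held 11 fibrillar chains, 8 basement membrane chains (6 chains of type IV with Col15a1 and Col18a1), 6 type VI chains, 9 fibril-associated chains, and 9 transmembrane, short-chain and other chains. Col21a1 and Col25a1 were not analysed here. The series asked what METTL3, the enzyme that writes N6-methyladenosine (m6A) on mRNA, does in the beiging of white fat. Its 16 libraries came from adipose tissue of C57BL/6 mice aged 8 weeks, with 2 libraries in each of 8 groups.

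All mice carried the floxed Mettl3 allele (METTL3 flox/flox). WT RT mice had no Cre and were untreated at room temperature. WT cold mice had no Cre and spent 7 days alone at 4 °C. Mice labelled cKO cold carried Adipoq-Cre as well and spent the same 7 days at 4 °C. Adipoq-Cre acts in adipocytes, so the other cells of the tissue keep the floxed gene. Input RNA and m6A-antibody captures were sequenced from all 3 conditions, and ribosome footprints only from the cold conditions. The room-temperature libraries bear library codes of a different run of numbers from all cold libraries, so temperature and library set cannot be told apart. Nothing in the labels says that the replicates were separate animals, and p-values then measure only the spread between these libraries, which may be technical.

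Collagens are proteins of 3 chains wound into a triple helix. Fibrillar chains (types I, III and V) are secreted by fibroblasts and build the tensile fibres of the stroma, type IV chains form the network of basement membranes, and type VI chains form beaded filaments near cells. In fat every adipocyte is wrapped in a basement membrane, adipocytes themselves make type IV and type VI collagen, and fibroblasts and progenitors make most of the fibrillar kind.

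Input libraries held 3895031 to 8673393 recovered reads on the listed genes, m6A libraries 4883129 to 6426541, and footprint libraries at least 1676208 to 2461267. Values are RPKM (reads per kilobase of gene, scaled to the reads of the library), which in input and m6A libraries are shares of the reads on listed genes, so a gene can fall because others rise. In footprints the scaling departed from those reads by factors of 0.956 to 1.01 relative to the first library. The median gene changed by -0.67 (log2) between WT RT and WT cold input under the deposited scaling, and by -0.05 under median-ratio scaling. Mettl3 stood at 10.8 and 9.27 RPKM in the room-temperature inputs, 5.24 and 3.66 in WT cold, then 3.83 and 1.90 in cKO cold, and the cold groups differed by -0.53 ± 0.30 (limma adjusted p = 0.215). In footprints Mettl3 stood at 4.60 and 4.82 RPKM in WT cold and at 8.99 and 5.22 in cKO cold. Against WT cold, Mettl3 was thus lower in the input and higher in the footprints of the libraries labelled cKO cold, so it leaves that label unchecked, and cKO cold below means the libraries so labelled. The value of a whole gene in whole tissue includes exons outside the deletion and cells without Cre. Muscle RNA was uneven, with Myh4, a skeletal muscle myosin, at 58.1 RPKM in the first WT RT input, 44.2 in the second cKO cold input and at most 0.16 in the other inputs. Lymphocyte markers also set the libraries apart. Their summed level was 511 to 556 RPKM in WT RT input, 0.21 to 0.43 in WT cold input and 1.93 to 3.95 in cKO cold input, with Cd79a at 0 in both WT cold inputs. In the footprints of WT cold, however, it was 246 to 360 RPKM. Input and footprints labelled as the same condition thus differed in these markers, and every result that sets footprints against input rests on such libraries.

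At room temperature the type I and type III chains were the most abundant. Col3a1, the single chain of type III collagen, stood at 672 and 647 RPKM, Col1a1, the main chain of type I collagen, at 513 and 552, and Col1a2, its partner chain, at 323.5 and 325.1. The basement membrane chains Col4a1 and Col4a2 followed at 228 and 214 RPKM and at 140 and 139 RPKM. The type VI chains Col6a2, Col6a1 and Col6a3 lay at 130 to 139, 113.2 to 114.5 and 85.4 to 87.5 RPKM. Among neighbours in this order, Col4a2 and Col6a2 differed by less than the spread between the Col6a2 libraries. Col15a1, a basement membrane collagen of the multiplexin kind, stood at 80.3 and 83.7 RPKM, and Col18a1, the other multiplexin and the precursor of endostatin, at 17.9 and 18.2. The type V chains Col5a3, Col5a1 and Col5a2, which regulate the start of fibrils, stood at 71.8 to 76.3, 62.1 to 67.4 and 36.9 to 38.1 RPKM. These 13 genes are those whose input mean reached 20 RPKM in some condition. The other 30 had input means below 20 RPKM in all conditions, and 17 of the 43 never reached the filter of 1 RPKM in 2 input libraries and were not tested there.

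Promoter sequences are shown for Col1a2, Col3a1 and Col6a1, whose RNA fell in the cold, and for Col5a3, a fibrillar chain whose RNA did not pass that test. They come from RefSeq (build GRCm38.p6). Promoter entries matched 34 of the 43 genes. Those not matched were Col1a1, Col2a1, Col4a3, Col5a2, Col9a3, Col12a1, Col14a1, Col22a1 and Col26a1. Sequences run 5′ to 3′ on the strand of the gene and end at the base before the start site, except that of Col5a3, and capitals mark matches on either strand to CCAAT, to TATAAA and to GGGCGG, motifs that do not overlap here. The Col1a2 window is chr6:4505368-4505617 (plus strand), the Col3a1 window chr1:45311288-45311537 (plus strand), and the Col6a1 window chr10:76726045-76726294 (minus strand). The Col5a3 window, chr9:20815118-20815317 (minus strand), is shortened to 200 bases, without the 50 next to the start site, which lie within the annotated gene.
Col1a2: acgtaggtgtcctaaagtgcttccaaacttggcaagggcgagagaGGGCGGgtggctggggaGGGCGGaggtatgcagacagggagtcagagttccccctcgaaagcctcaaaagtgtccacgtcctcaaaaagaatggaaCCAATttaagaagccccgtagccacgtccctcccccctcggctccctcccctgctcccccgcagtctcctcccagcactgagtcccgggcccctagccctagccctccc
Col3a1: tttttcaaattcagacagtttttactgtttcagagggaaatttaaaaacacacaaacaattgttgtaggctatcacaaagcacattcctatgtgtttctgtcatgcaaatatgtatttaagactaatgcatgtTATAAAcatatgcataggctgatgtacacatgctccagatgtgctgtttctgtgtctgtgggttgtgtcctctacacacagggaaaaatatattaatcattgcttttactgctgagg
Col5a3: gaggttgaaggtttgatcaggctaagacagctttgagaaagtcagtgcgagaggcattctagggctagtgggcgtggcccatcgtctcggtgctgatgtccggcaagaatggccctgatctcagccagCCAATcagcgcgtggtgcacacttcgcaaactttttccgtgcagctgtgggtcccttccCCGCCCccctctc
Col6a1: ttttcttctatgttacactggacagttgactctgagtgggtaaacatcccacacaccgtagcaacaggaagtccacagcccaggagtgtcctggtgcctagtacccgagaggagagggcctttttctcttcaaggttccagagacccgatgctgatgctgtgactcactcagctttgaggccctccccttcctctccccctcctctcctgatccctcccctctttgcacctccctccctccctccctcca
Col1a2 holds CCAAT at bases 109 to 105 before the start and GGGCGG at 205 to 200 and 188 to 183, Col3a1 holds TATAAA at 117 to 112, and Col6a1 holds none of the 3. Col5a3 holds CCAAT at 122 to 118 and the reverse complement of GGGCGG at 63 to 58, and a further one at 41 to 36 lies in the bases not shown. Over the full 250 bases, 12 of 37 collagen windows held CCAAT, 5 held TATAAA and 21 held GGGCGG. Among all 32851 windows of that length the shares were 33.8%, 12.4% and 32.7%. These are matches of letters and say nothing of which factors bind. Col4a1 and Col4a2 lie head to head on chromosome 8, and their annotated ranges overlap by 85 bases. Since the sources used here do not say that counting used strand, reads in those bases cannot be assigned to either gene.

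The first comparison, WT cold against WT RT, asks how the collagen RNA of fat responds to 7 days of cold. Fibrillar and type VI chains were lower in the cold, and none of the type IV chains passed the test. Of the 26 collagen genes tested in input, 0 were higher and 18 were lower (limma, adjusted p under 0.05, Benjamini-Hochberg over 12667 genes; at an unadjusted p under 0.05, 0 were higher and 20 lower). Among all genes tested, 6.52% were higher and 51.2% lower, so that falling was common. Of the 18, Col6a4, Col11a2 and Col23a1 reached 1 RPKM only in the WT RT inputs. The filter thus admitted them only through the group where they were high, and their fall is not independent of it. The members' median was -1.03 (log2) beside -0.67 over all genes. Both cold libraries lay below both room-temperature libraries in 22 of the 26, as in 70.4% of all genes, and above them in 1 (Col28a1), as in 12.3%. Under median-ratio scaling 1 collagen gene was higher and 8 were lower (19.1% and 20.2% of all genes), the 8 being Col1a1, Col1a2, Col3a1, Col6a4, Col6a5, Col6a6, Col14a1 and Col16a1, and the 1 being Col4a2. A fall in these libraries can mean fewer cells that make a chain or less of its RNA per cell, and bulk tissue cannot tell them apart.

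**Figure D1:**
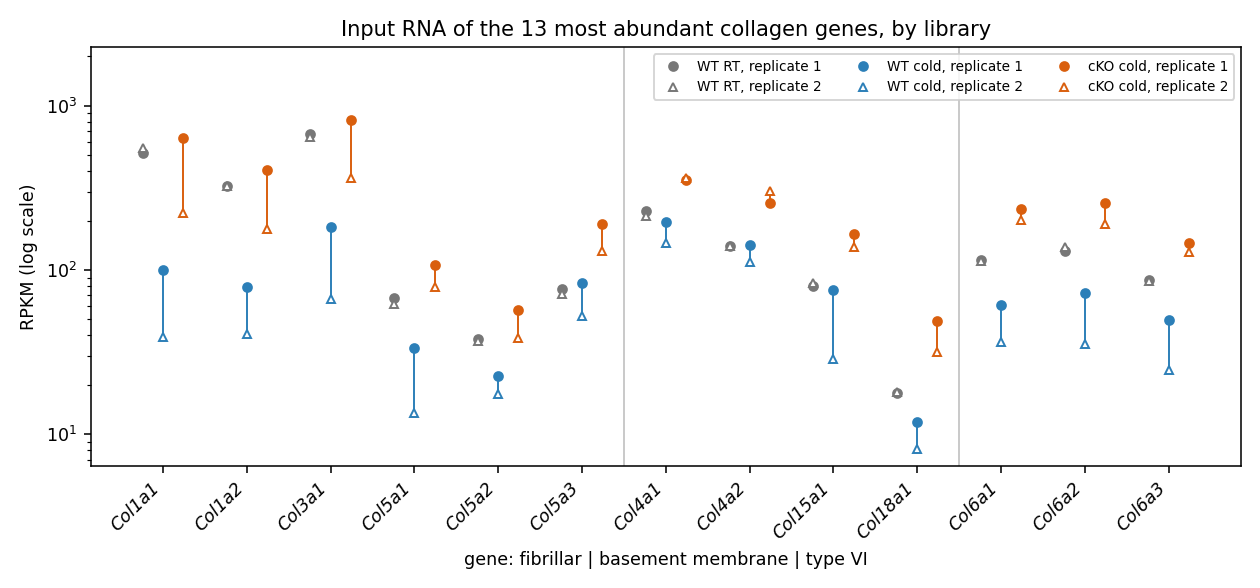
RPKM (log scale) of the 13 most abundant collagen genes in each of the 6 input libraries, with circles for replicate 1, triangles for replicate 2 and a line joining the libraries of a group. Both WT cold libraries of Col1a1, Col1a2 and Col3a1 lie far below WT RT, 1 WT cold library each of Col4a2 and Col5a3 exceeds both WT RT libraries, and both cKO cold libraries lie above both WT cold libraries in all 13 genes.

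Among fibrillar chains 7 of 8 tested fell, and 3 under median-ratio scaling. The 7 include Col11a2, which passed the filter only through WT RT. Col1a1 lay at 99.6 and 39.0 RPKM after cold against 513 and 552 at room temperature, a log2 fold change of -3.07 ± 0.56 (SE, n = 2 libraries per group, limma adjusted p = 0.00385). Col1a2 stood at 78.4 and 40.9 RPKM in WT cold and fell by 2.496 ± 0.42 on the log2 scale. Col3a1 stood at 182 and 66.3 RPKM and changed by -2.57 ± 0.52. In all 3 chains the cold libraries lay below both room-temperature libraries, and the second cold library was the lower. Col5a1 fell by 1.56 on the log2 scale, to 33.3 and 13.4 RPKM, and Col5a2 by 0.87, to 22.7 and 17.7 RPKM. Col5a3, the third type V chain, stood at 83.3 and 52.4 RPKM in the cold, on either side of the WT RT libraries (-0.16 ± 0.26, limma adjusted p = 0.609). The chains Col11a2 and Col27a1 also fell, from 1.58 and 1.28 RPKM to 0.32 and 0.33, and from 5.22 and 7.04 RPKM to 2.999 and 3.864. The remaining fibrillar chains Col2a1, Col11a1 and Col24a1 were under 0.5 RPKM in every input library.

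Of the 6 type VI chains tested, 6 fell, and 3 under median-ratio scaling, the rare chains Col6a4, Col6a5 and Col6a6. The 6 include Col6a4, which passed the filter only through WT RT. Col6a1, Col6a2 and Col6a3 make up the usual type VI molecule, and they moved by nearly equal amounts (-1.25 ± 0.23, -1.38 ± 0.32 and -1.29 ± 0.29). Col6a1 stood at 61.0 and 36.7 RPKM in WT cold, Col6a2 at 72.8 and 35.5, and Col6a3 at 49.3 and 24.5, each below both WT RT libraries. Their 3 related chains were rare and also fell. Col6a4 had 179 and 220 reads at room temperature and 0 in either WT cold input. Taking 3 reads in the whole group as the floor, it was at least 115-fold lower, with floors covering counting error only. Col6a5 fell from 147 and 170 reads to 5 and 0, and Col6a6 from 225 and 227 reads to 48 and 16. In the WT cold footprints, however, Col6a4 had 19 and 8 reads and Col6a5 had 23 and 12. The lymphocyte markers went the same way, near 0 in WT cold input and present in WT cold footprints, and their part in these values was not tested.

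Of the 6 basement membrane chains tested 1 fell, Col18a1, from 17.9 and 18.2 RPKM to 11.8 and 8.11 (-0.82 ± 0.25, limma adjusted p = 0.0272). At an unadjusted p under 0.05, 3 of the 6 were lower. Col4a1 stood at 195 and 146 RPKM in WT cold (-0.39 ± 0.16, limma adjusted p = 0.073), and Col4a2 at 141 and 112 (-0.15 ± 0.15, limma adjusted p = 0.43). Both changes lay above the -0.67 of the median gene, and under median-ratio scaling they were positive, at 0.36 and 0.60. Col15a1 stood at 75.8 and 28.9 RPKM, so that 1 cold library was near the WT RT level and the other far below it (-0.79 ± 0.39, limma adjusted p = 0.123). In the cold Col4a1 and Col4a2 had the highest input means of all collagen genes (170.5 and 126.5 RPKM), with Col3a1 next at 124 RPKM. The Col3a1 libraries overlapped those of both type IV chains, so the order of the 3 is not resolved.

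Fibril-associated chains sit on the surface of fibrils. Of 4 tested, 3 fell: Col14a1 from 9.97 and 8.62 RPKM to 2.96 and 2.12, Col12a1 from 3.48 and 3.20 RPKM to 1.16 and 1.36, and Col16a1 from 3.47 and 3.22 RPKM to 0.55 and 0.65. Among the transmembrane and short-chain kinds, Col23a1, a membrane-spanning collagen, fell from 1.60 and 2.08 RPKM to 0.61 and 0.87. Without either of the WT RT libraries 23 collagen genes were tested, since Col6a4, Col11a2 and Col23a1 no longer passed the filter. Fewer genes were then called, all of them among the 18.

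**Figure D2:**
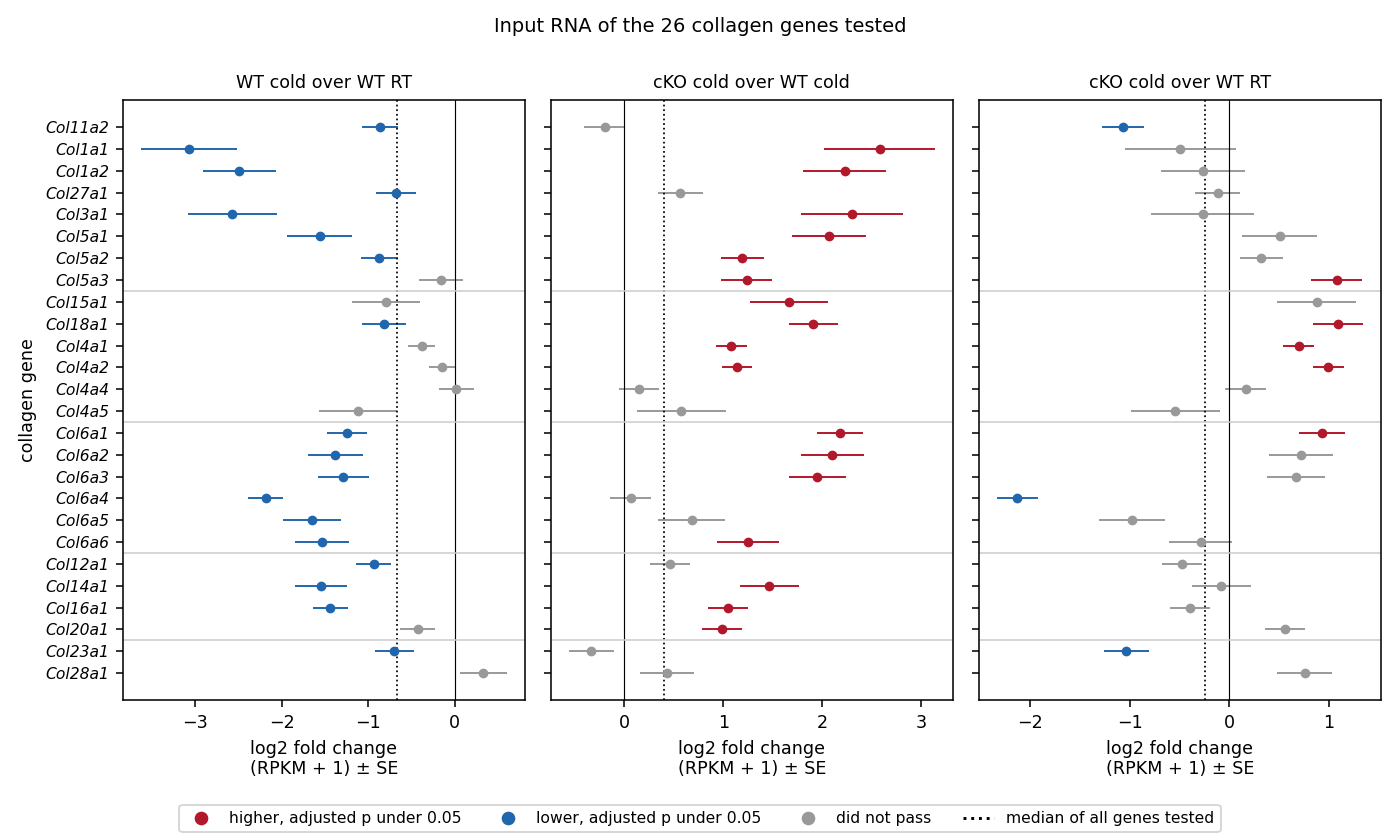
Log2 fold change of RPKM + 1 (points, with standard errors as bars) for the 26 collagen genes tested in input RNA, for 3 comparisons. Red and blue points passed an adjusted p of 0.05, grey points did not, and the dotted line is the median of all genes tested. Most points lie left of 0 in WT cold over WT RT and right of 0 in cKO cold over WT cold. In the first of these, Col4a1, Col4a2, Col4a4, Col5a3, Col20a1 and Col28a1 lie nearer to 0 than the dotted line.

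Ratios of genes within a library do not depend on how libraries are scaled. The ratio of Col1a1 to Col4a1 was 2.25 and 2.58 in room-temperature input, 0.51 and 0.27 after cold, and 1.81 and 0.62 in cKO cold. Every WT cold value lay below every other input value. The ratio of Col5a3 to Col5a1 was 1.13 and 1.16 at room temperature, 2.503 and 3.90 after cold, and 1.77 and 1.64 in cKO cold, so the make-up of type V RNA was shifted toward Col5a3 in the cold. For chains that share a molecule, Col4a1 over Col4a2 ranged from 1.20 to 1.63 over the 6 inputs, and Col6a1 over Col6a2 from 0.81 to 1.05. For type I collagen, Col1a1 over Col1a2 ran from 0.95 in the second WT cold library to 1.70 in a WT RT library.

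**Figure D3:**
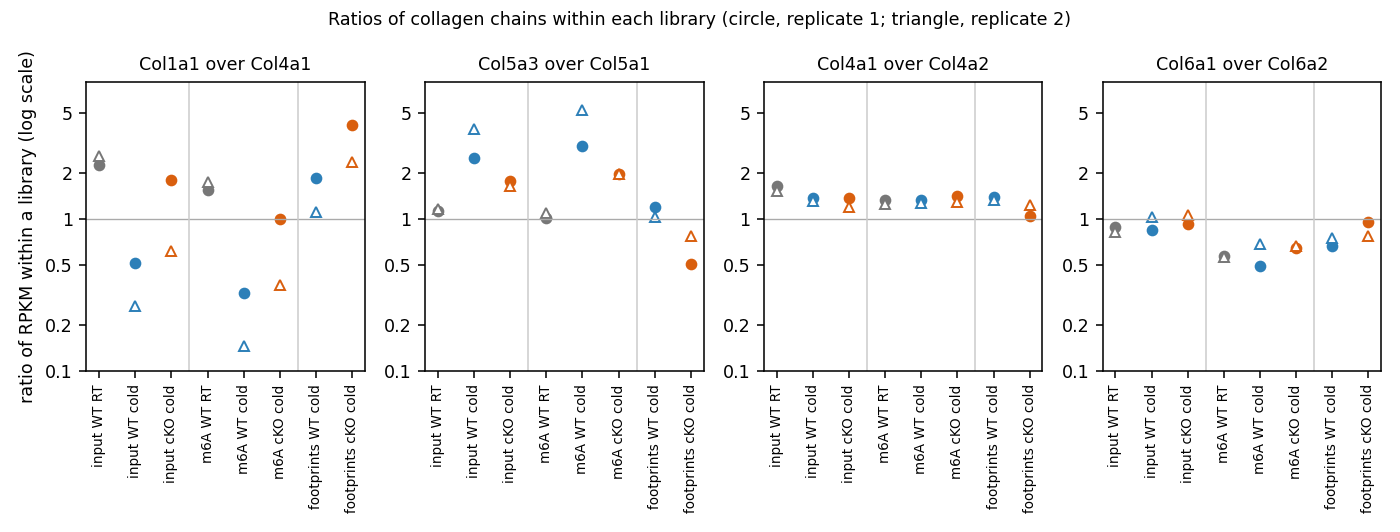
Ratio of RPKM of gene pairs within each of the 16 libraries (log scale), with circles for replicate 1 and triangles for replicate 2, in grey for WT RT, blue for WT cold and orange for cKO cold. Col1a1 over Col4a1 is lowest in WT cold and Col5a3 over Col5a1 highest there in input and m6A. Col4a1 over Col4a2 lies between 1.04 and 1.63, and Col6a1 over Col6a2 between 0.49 and 1.05, lowest in m6A libraries.

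The second comparison, cKO cold against WT cold, asks what the labelled loss of Mettl3 in adipocytes does to collagen RNA in the cold. Collagen RNA was higher in the libraries labelled cKO across the fibrillar, basement membrane and type VI classes. Of 26 tested, 17 were higher and 0 lower (limma; at an unadjusted p under 0.05, 18 and 0), beside 23.6% higher and 2.92% lower among all genes. The members' median was 1.17 (log2) beside 0.40 over all genes. Both cKO cold libraries lay above both WT cold libraries in 21 of the 26, as in 56.8% of all genes, and below them in 2 (Col11a2 and Col23a1), as in 8.44%. Under median-ratio scaling 9 were higher and 0 lower (6.09% and 6.95% of all genes). By class, 6 of 8 fibrillar, 4 of 6 basement membrane, 4 of 6 type VI and 3 of 4 fibril-associated chains rose (2, 3, 3 and 1 under median-ratio scaling). The share of input reads on the 43 genes was 1.48% in both WT RT libraries, 0.67% and 0.39% after WT cold, and 2.17% and 1.42% in cKO cold.

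Col6a1 stood at 236 and 201 RPKM in cKO cold against 61.0 and 36.7 in WT cold (2.18 ± 0.23, limma adjusted p = 0.00453). Col6a2 stood at 257 and 191 RPKM and rose by 2.10 ± 0.32, and Col6a3 at 146 and 129 RPKM and rose by 1.95 ± 0.29. Both cKO libraries of these 3 genes lay above both WT cold and both WT RT libraries. Col18a1 stood at 49.0 and 31.9 RPKM (1.91 ± 0.25), and Col4a1 at 354 and 362 RPKM (1.08 ± 0.16). Col4a2 stood at 258 and 301 RPKM (1.14 ± 0.15), and Col15a1 at 166 and 137 RPKM (1.67 ± 0.39). For Col4a1 and Col4a2 the cKO libraries exceeded those of both other groups. The rare chain Col6a4 stayed at 3 and 0 reads in the cKO cold inputs, and Col6a6 rose by 1.25 ± 0.32.

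The fibrillar chains rose as far but were more scattered. Col1a1 stood at 639 and 223 RPKM in cKO cold (2.58 ± 0.56, limma adjusted p = 0.0197), Col1a2 at 407 and 178 (2.23 ± 0.42), and Col3a1 at 819 and 365 (2.30 ± 0.52). The first cKO library lay above WT RT and the second below it, while both lay above WT cold. Col5a1 stood at 107.5 and 79.3 RPKM (2.07 ± 0.38), Col5a2 at 57.3 and 38.7 (1.19 ± 0.21), and Col5a3 at 189.8 and 130.1 (1.24 ± 0.26). Of the fibril-associated chains, Col14a1 stood at 11.8 and 6.36 RPKM and rose by 1.47 ± 0.30, whereas Col12a1 stood at 2.25 and 1.99 RPKM and did not pass (0.46 ± 0.20, limma adjusted p = 0.124). Col11a2 and Col23a1 went the other way without passing the test, at 0.04 and 0.29 RPKM and at 0.55 and 0.23 RPKM in cKO cold.

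Single libraries mattered here. Without the second WT cold input the differences of Col1a1, Col1a2 and Col3a1 were 1.91, 1.77 and 1.58 (log2). Without the first cKO cold input they were 1.82, 1.63 and 1.72, and each was smaller than with all libraries. Fewer collagen genes were called in either fit, all of them among the 17. Some cell type markers moved with these chains. The 8 fibroblast and progenitor markers summed to 263 to 308 RPKM in WT RT input, 102 to 146 in WT cold and 303 to 423 in cKO cold, and 7 of the 8 rose between the cold groups (1 of the 8 under median-ratio scaling). The 6 macrophage markers summed to 565 to 629, 109 to 126 and 508 to 1069 RPKM, and 6 of the 6 rose (also 6 under median-ratio scaling). The 4 brown and beige adipocyte markers, Ucp1 among them, went the opposite way to the collagen genes. They summed to 51.8 to 102 RPKM in WT RT, 968 to 1212 in WT cold, then 46.5 to 106 in cKO cold, and 4 of the 4 fell between the cold groups under either scaling. No gene of these 3 lists was at 0 in both libraries of an input group. Between the cold groups, 1 of 6 endothelial, 0 of 5 smooth muscle and pericyte and 0 of 4 Schwann cell markers passed as higher. Of 6 adipocyte markers, 1 was higher and 1 lower in cKO cold. The medians of these lists were 0.47, 0.517, 0.345 and -0.026 (log2), beside 0.40 over all genes. Among all genes 23.6% were higher and 2.92% lower. The part of the marker lists in the collagen differences was not tested.

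The third comparison sets cKO cold against WT RT, and both temperature and genotype label differ in it. Here 5 collagen genes were higher (8.38% of all genes) and 3 lower (24.7%) of 26. The members' median was 0.04 beside -0.24 over all genes. The genes above the room-temperature level were Col18a1 (1.09 ± 0.25), Col5a3 (1.08 ± 0.26), Col4a2 (0.99 ± 0.15), Col6a1 (0.93 ± 0.23) and Col4a1 (0.69 ± 0.16). Those below it were Col6a4 (-2.13 ± 0.20), Col11a2 (-1.07 ± 0.21) and Col23a1 (-1.04 ± 0.23). All of these reached 1 RPKM only in the WT RT inputs. The filter thus admitted them only through the group where they were high, and their lower level is not independent of it. Col1a1, Col1a2 and Col3a1 gave -0.49 ± 0.56, -0.27 ± 0.42 and -0.27 ± 0.52, with limma adjusted p of 0.527, 0.657 and 0.717. Under median-ratio scaling 8 were higher (13.4% of all genes), with Col6a2, Col6a3 and Col20a1 added, and the same 3 lower (15.3%). Fewer genes were called when either WT RT library or the second cKO cold library was left out.

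Genes that fold, process and hold collagen were counted in the same comparisons, with the 4 most abundant of each list named. Of 21 tested genes for collagen synthesis in the endoplasmic reticulum, 15 fell in WT cold and 16 were higher in cKO cold than in WT cold, beside 51.2% of all genes lower in the first and 23.6% higher in the second. Under median-ratio scaling 4 were lower and 1 higher in the first and 8 higher in the second, beside 20.2% lower and 19.1% higher and 6.09% higher among all genes. These shares of all genes apply to each list that follows. Colgalt1, which adds galactose to collagen, fell from 40.8 and 40.2 RPKM to 12.2 and 11.9 (-1.67 ± 0.16) and reached 41.6 and 31.7 in cKO cold (1.52 ± 0.16). P4hb, a subunit of prolyl hydroxylase, changed by -0.63 and 1.40 (log2) in the 2 comparisons, and Plod1, a lysyl hydroxylase, by -0.54 and 1.44. Serpinh1, the collagen chaperone HSP47, measured 177 and 204 RPKM at room temperature, 204 and 93.6 in WT cold, then 428 and 436 in cKO cold, and only the second difference passed (1.64 ± 0.33, limma adjusted p = 0.0153).

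Of 12 genes for processing and cross-linking, 8 fell in WT cold and 8 rose in cKO cold (under median-ratio scaling 1 lower and 1 higher, then 4 higher). Pcolce, which speeds removal of the procollagen C-propeptide, changed by -1.20 and 1.68, and Loxl1, a lysyl oxidase of elastic tissue, by -1.04 and 1.49. Tgm2, a transglutaminase, fell by 0.42 on the log2 scale in the first and gave 0.39 without passing in the second. Lox, the lysyl oxidase that starts collagen cross-links, lay at 14.7 and 13.1 RPKM at room temperature, 16.8 and 26.5 in WT cold, then 25.9 and 18.0 in cKO cold, and passed neither test.

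Of 15 fibril partners, 7 fell in WT cold, a share below that of all genes, and 9 rose in cKO cold (under median-ratio scaling 3 lower, then 2 higher). Fn1, fibronectin, went from 132 and 104 RPKM to 38.7 and 22.4, and reached 178 and 68.5 in cKO cold. Sparc, a collagen-binding glycoprotein, went from 887 and 819 RPKM to 586 and 501, and reached 1042 and 982. The small proteoglycan Bgn changed by -1.67 and 1.02, while Dcn, which also coats fibrils, passed only in the second (-0.45 and 1.02). Of 12 basement membrane partners, 7 fell and 6 rose, whereas under median-ratio scaling 0 were lower and 3 higher in WT cold, and 2 rose in cKO cold. Hspg2, perlecan, changed by -0.62 and 0.91, and Lamc1, a laminin chain, by -0.57 and 1.10. Nid1, which links laminin to type IV collagen, and the laminin chain Lama4 passed neither test (-0.13 and 0.63, and 0.14 and 0.42).

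For the breakdown list, 6 of 16 fell, 1 was higher in WT cold, and 11 rose in cKO cold. The share that fell was below that of all genes, and under median-ratio scaling 0 were lower and 3 higher in WT cold, and 5 rose in cKO cold. Mmp2, a gelatinase, measured 59.6 and 57.3 RPKM, then 25.02 and 25.97, then 152 and 53.7, and Timp2, an inhibitor of such enzymes, changed by -1.40 and 1.63. The protease Ctsb passed only in the second (-0.16 and 0.94), and the inhibitor Timp3 in neither (-0.10 and 0.22). Of 9 collagen receptors, 5 fell, 1 was higher in WT cold and 5 rose in cKO cold (under median-ratio scaling 2 lower and 2 higher, then 3 higher and 1 lower). Cd36, better known as the fatty acid transporter of adipocytes, was the one that rose in WT cold (1.21), and it gave -0.10 in the second. Ddr2, a fibrillar collagen receptor, changed by -0.78 and 1.45, the integrin chain Itgb1 passed only in the second (-0.21 and 0.63), and Itga1 in neither (-0.36 and 0.68). Of 19 genes for TGF-beta signalling, a main inducer of fibrillar collagen, 15 fell and 10 rose (under median-ratio scaling 6 lower, then 2 higher and 1 lower). Tgfb1 itself measured 92.0 and 88.1 RPKM at room temperature, 14.6 and 14.4 in WT cold, then 42.9 and 29.2 in cKO cold. Tgfbi, a target, changed by -2.15 and 1.43, the co-receptor Tgfbr3 by -0.75 and 1.00, and Ltbp3, which stores latent TGF-beta, by -0.42 and 0.46.

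None of the 7 lists held a gene that passed as lower in cKO cold than in WT cold, although under median-ratio scaling 1 receptor and 1 TGF-beta gene did. List medians ran from -1.10 (TGF-beta) to -0.46 (breakdown) in the first comparison, beside -0.67 over all genes, and from 0.58 (TGF-beta) to 1.42 (processing) in the second, beside 0.40. The summed fibroblast and macrophage markers given above moved with these lists too, while the beige adipocyte markers moved the opposite way. Against WT RT, 4 of 8 fibroblast and 4 of 6 macrophage markers were lower in WT cold, beside 51.2% of all genes. Under median-ratio scaling 1 and 3 were lower, beside 20.2%. The fibroblast share was thus not above that of all genes. Of 4 beige adipocyte markers, 4 were higher under either scaling, beside 6.52% and 19.1%. The part of these markers was not tested.

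The genes whose input pattern was most like type I collagen (the log2 sum of Col1a1 and Col1a2, Pearson's r over 6 libraries in 3 conditions, 2776 genes compared) were Dpysl2, Pdgfrb, Mia3, Tnks1bp1 and Ctnnb1, with r of 0.993 to 0.995. They were picked as the top of that ranking. All genes were measured in the same 6 libraries, which differ in depth and in cell markers, and Pdgfrb is also among the fibroblast markers.

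m6A over input asks how strongly the antibody captured a gene's RNA relative to that of other genes. Col6a2, Col18a1 and Col27a1 were captured well and Col12a1 and Col14a1 poorly. In WT RT, 2 were higher in the m6A library (Col23a1 and Col27a1) and 2 lower (Col12a1 and Col14a1), beside 16% and 34.6% of all 13062 genes. In WT cold, 6 were higher and 1 lower (13.7% and 25.6% of all genes), and in cKO cold 10 and 2 (11.4% and 35.2%). Same-numbered libraries of a condition deviated together, and with these pairs as blocks 8 and 8 passed in WT RT (21.3% higher and 40.6% lower among all genes), 11 and 3 in WT cold (19.4% and 31.9%), and 14 and 3 in cKO cold (16.1% and 42.2%). Under median-ratio scaling without blocks the counts were 8 and 1, 9 and 0, and 13 and 1, beside 24.1% and 23.0%, 20.4% and 21.2%, and 21.2% and 20.5% of all genes.

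Col6a2 was the abundant chain with the highest ratio at room temperature. Its m6A RPKM over input RPKM was 1.73 and 1.75 in WT RT, 2.25 and 2.18 after cold, and 2.005 and 2.46 in cKO cold. Its partner Col6a1 gave 1.13 and 1.20, 1.31 and 1.45, and 1.40 and 1.54, so that 2 chains of 1 molecule were captured unequally in every pair. Col18a1 gave 1.51 and 1.61, 1.87 and 2.19, and 1.55 and 1.72. Col12a1 and Col14a1 were at the other end. Col12a1 gave 0.23 and 0.34, 0.48 and 0.41, and 0.36 and 0.20, and Col14a1 gave 0.41 and 0.34, 0.40 and 0.68, and 0.51 and 0.31. Col27a1, a fibrillar chain of cartilage and skin, was enriched in all 3 conditions (0.90 ± 0.22, 0.84 ± 0.22 and 1.23 ± 0.22 on the log2 scale).

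**Figure D4:**
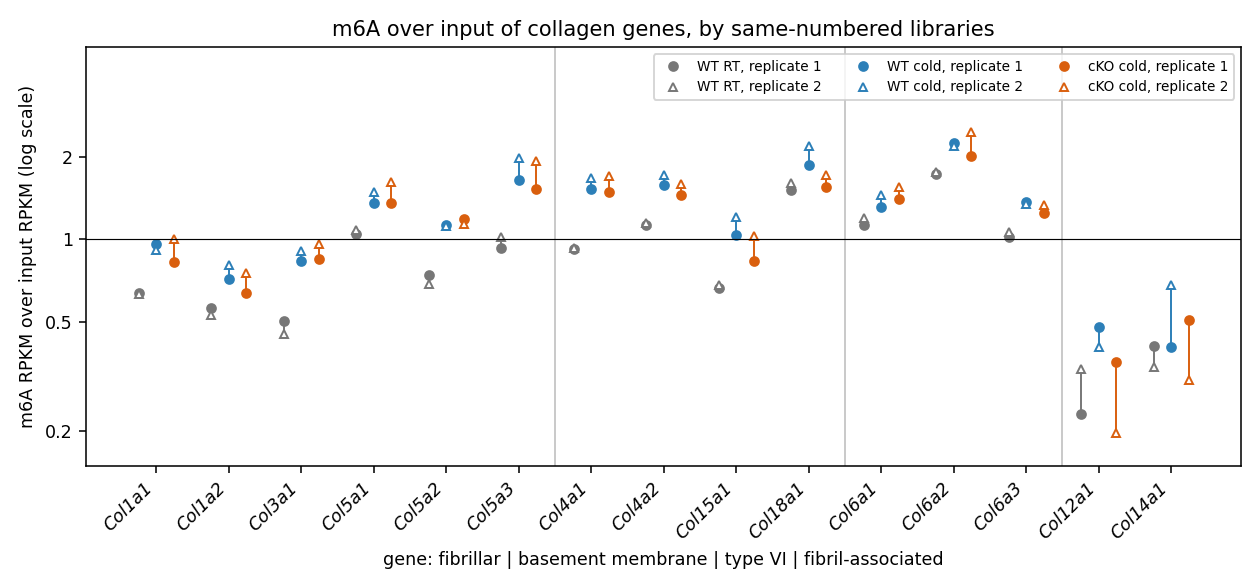
Ratio of m6A RPKM to input RPKM (log scale) of 15 collagen genes in same-numbered libraries, with circles for replicate 1 and triangles for replicate 2 and a line joining the pairs of a condition. For all genes shown except Col14a1 both WT RT pairs lie below both WT cold pairs. For the fibrillar chains and for Col4a1, Col4a2 and Col15a1, WT cold and cKO cold overlap or lie close.

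The next comparison asks whether the ratio differed between WT RT and WT cold, and with pairs as blocks it was higher in the cold for 7 chains. Col3a1 gave 0.51 and 0.45 in WT RT and 0.84 and 0.91 in WT cold, Col4a1 gave 0.92 and 0.93 and then 1.53 and 1.67, and Col5a3 gave 0.93 and 1.02 and then 1.64 and 1.98. As an interaction term without blocks, 0 of 28 collagen genes passed in limma (4 higher and 0 lower at an unadjusted p under 0.05), beside 0.0612% of all genes. With pairs as blocks 7 were higher and 0 lower, beside 1.7% and 0.367% of all genes. These were Col5a3 (0.88 ± 0.14), Col3a1 (0.87 ± 0.11), Col4a1 (0.78 ± 0.10), Col15a1 (0.72 ± 0.13), Col5a2 (0.63 ± 0.12), Col1a1 (0.57 ± 0.11) and Col4a2 (0.53 ± 0.10). Their limma adjusted p ran from 0.0226 for Col3a1 and Col4a1 to 0.0482 for Col1a1. With blocks and median-ratio scaling together, an alternative added after the data were seen, Col3a1, Col4a1 and Col5a3 passed, beside 0.487% of all genes higher and 0.355% lower. The labels do not state this pairing, and temperature and library set cannot be told apart here either. The type VI chains Col6a1, Col6a2 and Col6a3 gave 0.24 ± 0.11, 0.34 ± 0.12 and 0.37 ± 0.10 with blocks and missed the threshold (limma adjusted p of 0.257, 0.158 and 0.0969).

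Between WT cold and cKO cold no change of m6A over input was detected for collagen genes. Without blocks 0 of 28 passed (2 higher and 0 lower at an unadjusted p under 0.05, with 1311 of all genes), and with blocks also 0, beside 3.1% of all genes. For example, Col4a1 gave 1.49 and 1.71 in cKO cold (-0.001 ± 0.10 with blocks), Col3a1 0.85 and 0.96 (0.05 ± 0.11) and Col6a2 2.005 and 2.46 (0.01 ± 0.12). The median change of the 28 was 0.03 beside -0.15 over all genes. Both values in the ratio are shares of library reads, so a change of m6A common to all genes would not show.

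**Figure D5:**
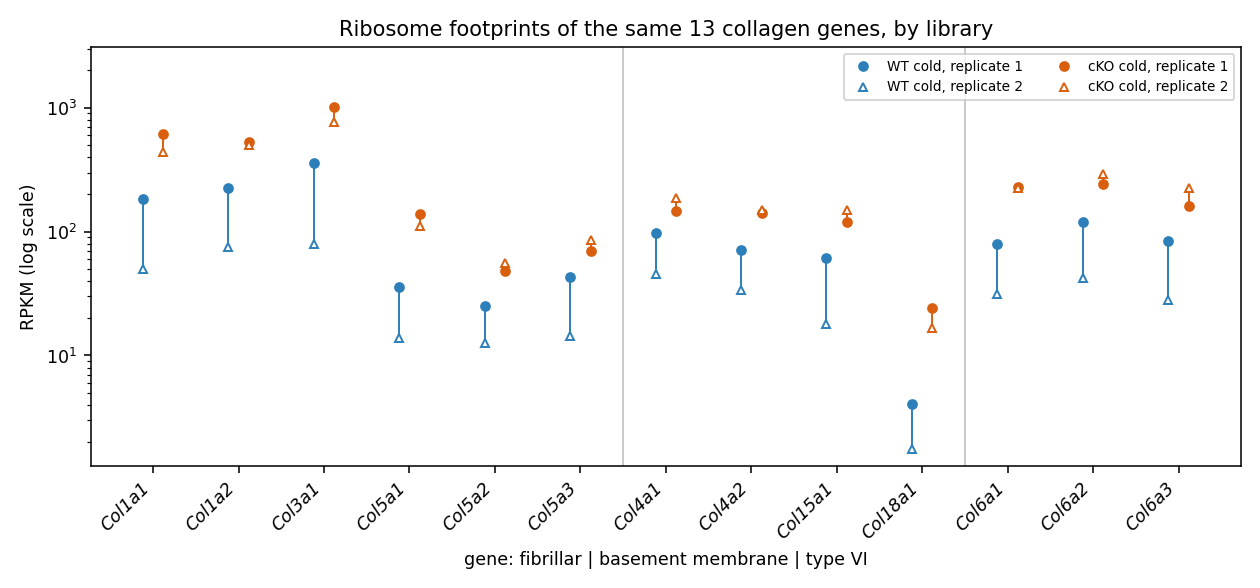
RPKM (log scale) of the same 13 collagen genes in the 4 footprint libraries, with circles for replicate 1, triangles for replicate 2 and a line joining the libraries of a group. Both cKO cold libraries lie above both WT cold libraries for each gene, and the second WT cold library is the lowest throughout.

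Ribosome footprints, the fragments of mRNA shielded by translating ribosomes, were higher in cKO cold for the same classes. Of 25 collagen genes tested 7 rose and 0 fell (limma; 15 and 0 at an unadjusted p under 0.05), beside 5.61% and 1.54% of all 12763 genes. Libraries of the groups did not overlap in 17 of the 25, all higher in cKO cold, beside 47.5% of all genes higher and 8.02% lower. The members' fibrillar median was 1.996 (log2), the type VI median 1.68 and the basement membrane median 1.42, beside 0.42 over all genes. Col18a1 stood at 4.06 and 1.77 RPKM in WT cold and at 24.3 and 16.6 in cKO cold (2.49 ± 0.38, limma adjusted p = 0.0136). Col5a1 stood at 35.6 and 13.9 RPKM and at 138 and 111 (2.42 ± 0.48, limma adjusted p = 0.0287). Col6a1 stood at 79.1 and 31.2 RPKM and at 228 and 225 (2.16 ± 0.41, limma adjusted p = 0.0259). In these 3 genes both cKO libraries lay well above both WT cold libraries. The other 4 that passed were Col6a3, Col4a2, Col5a2 and Col14a1. Col6a3 went from 84.0 and 27.9 RPKM to 162 and 224 (1.95 ± 0.49), and Col4a2 from 70.6 and 34.1 to 142 and 150.3 (1.55 ± 0.33). Col5a2 went from 25.1 and 12.6 RPKM to 48.4 and 55.7 (1.49 ± 0.34), and Col14a1 from 15.8 and 10.2 to 38.9 and 31.5 (1.39 ± 0.35). Col6a2, Col4a1, Col15a1 and Col5a3 gave 1.88 ± 0.48, 1.29 ± 0.35, 1.98 ± 0.56 and 1.59 ± 0.46 and missed the threshold, with limma adjusted p of 0.0509, 0.0566, 0.0647 and 0.0672.

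The type I and type III chains carried the most footprints and had as large a difference, with more scatter. Col1a1 stood at 184 and 50.3 RPKM in WT cold and at 612 and 440 in cKO cold (2.42 ± 0.69, limma adjusted p = 0.0647). Col1a2 stood at 223 and 74.5 RPKM and at 531 and 505 (1.996 ± 0.55, limma adjusted p = 0.061), and Col3a1 at 355 and 80.1 RPKM and at 1016 and 771 (2.38 ± 0.71, limma adjusted p = 0.0716). The second WT cold library was the low one in each. With same-numbered libraries joined by an estimated correlation of 0.272, 13 collagen genes passed, among them Col1a1 (limma adjusted p = 0.0488) and Col1a2 (limma adjusted p = 0.0496), beside 7.82% of all genes. Calls depended on single libraries. More collagen genes were called without the first WT cold footprint library than with all libraries, and fewer without any other footprint library. Under median-ratio scaling Col5a1, Col6a1 and Col18a1 passed, beside 0.785% of all genes higher and 2.51% lower. The fibroblast markers summed to 405 to 410 RPKM in WT cold and 806 to 887 in cKO cold footprints. The macrophage markers summed to 2747 to 3300 and 3703 to 6598. In footprints 0 of 8 fibroblast and 4 of 6 macrophage markers passed as higher, beside 5.61% of all genes. Under median-ratio scaling 0 and 1 did, beside 0.785%. No gene of either list was at 0 in both libraries of a group, and their part was not tested.

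For footprints over input, a measure of ribosome load per RNA, no collagen gene passed the test between the cold groups. As an interaction term 0 of 25 passed in limma (0 higher and 1 lower, Col20a1, at an unadjusted p under 0.05), as did 0 of all genes, of which 459 had an unadjusted p under 0.05. The members' median change was 0.04 (log2). The gene lengths behind footprint and input values could not be matched, so the ratio is compared between libraries and not between genes. For Col1a1 it was 1.85 and 1.29 in WT cold, then 0.96 and 1.97 in cKO cold (-0.16 ± 0.97). For Col3a1 it was 1.95 and 1.21, then 1.24 and 2.11 (0.08 ± 1.00), and for Col4a1 0.51 and 0.31, then 0.42 and 0.51. The groups overlapped in these 3 genes. For Col5a1 the ratio was 1.07 and 1.03 in WT cold, then 1.28 and 1.40 in cKO cold, which do not overlap, and it did not pass either. The standard errors of the type I and III chains are too wide to show a change of less than several-fold. Within footprint libraries, the ratio of Col1a1 to Col4a1 was 1.87 and 1.10 in WT cold, then 4.16 and 2.37 in cKO cold, with no overlap between the groups. The ratio of Col5a3 to Col5a1 was 1.20 and 1.04 in WT cold, then 0.50 and 0.77 in cKO cold footprints, also without overlap and in the same direction as between the cold inputs.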

How the data were processed

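Input RNA, m6A captures and ribosome footprints of 16 libraries were analysed. The authors deposited 1 matrix of RPKM values per gene. The submitters' processing notes name HISAT2 and the genome build mm10, and other settings are not given in the sources used here. Every column of sample values was used (0 left unused). Whole reads were recovered from the RPKM steps for 100.0% of genes (tolerance 0.001 read), which gave the read totals. Counting error alone is covered by floors of 3 reads.

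The deposited RPKM were taken as log2(RPKM + 1), so fold changes of low genes are understated. A gene entered a fit when 2 or more of its libraries reached 1 RPKM. Tests used limma 3.58.1 (R 4.3.3; lmFit, eBayes with a trend, two-sided), with p-values Benjamini-Hochberg adjusted over all genes tested at a threshold of 0.05. The fits held the 6 input libraries, the 12 input and m6A libraries, and the 8 cold input and footprint libraries. Errors are standard errors with n = 2 libraries a group. The code was tested on simulated data.

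Replicate numbers were checked by correlating deviations from group means over 8464 genes. Within a condition same-numbered libraries correlated at 0.305 to 0.656 (input with m6A) and at 0.317 to 0.376 with footprints, so they were treated as pairs, a pairing found in the data and not stated by the labels. Between conditions the correlations were -0.099 to 0.078, and numbers were not treated as pairs.

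Alternatives were another pseudocount, no filter, median-ratio and quantile scaling, 1 fit of all libraries, the block and leaving out each library. The block with median-ratio scaling was chosen after seeing the data. The members and all lists were chosen with earlier results of these data known. Input values or reads in every library were given for collagen genes with a mean input of at least 20 RPKM in some condition. The same held for those called in footprints, in a change of m6A or footprints over input, or against the direction of most. Footprint and m6A values were given for some of these. Of the other lists the 4 genes with the highest mean input were named. Other genes complete a family or a count and were chosen after their values were seen. Figures used Python 3.11.15 and matplotlib 3.10.9.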

Additional observations from a re-analysis of the deposited data

Results flagged for a closer look

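For 7 collagen genes the m6A over input ratio differed between WT cold and WT RT by a test of the difference itself, an interaction term in limma with same-numbered libraries as blocks. The differences (log2, higher in WT cold) were 0.88 for Col5a3, 0.87 for Col3a1, 0.78 for Col4a1, 0.72 for Col15a1, 0.63 for Col5a2, 0.57 for Col1a1 and 0.53 for Col4a2. Without the blocks none of the 7 passed. In the blocked fit 1.7% of all genes were higher and 0.367% lower.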

How the results depend on the processing

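Calls depended on scaling and on single libraries more than on the pseudocount or filter, except in footprints. Collagen genes called under median-ratio scaling were 9 for WT cold against WT RT, 9 for cKO cold against WT cold, 9 for m6A over input in WT RT (9 also with quantile scaling) and 3 for footprints. In 1 fit of all 16 libraries they were 5 for cKO cold against WT RT, 2 and 5 for m6A over input in WT cold and cKO cold, and 15 for footprints. Footprints gave 4 with a pseudocount of 0.1, 1 with no filter and 1 with quantile scaling. With the replicate block the counts were 16 and 14 for m6A over input in WT RT and WT cold, 7 for its change in the cold and 13 for footprints. With the block and median-ratio scaling, m6A over input gave 19, 15 and 21 in WT RT, WT cold and cKO cold. The 19 were 13 higher and 6 lower, the 15 were 14 and 1, and the 21 were 19 and 2. The shares of all genes are not given here for m6A over input under this setting, so nothing is read from these counts. The change of m6A over input in the cold gave 3 under this setting. For input, whose numbers do not pair across conditions, the block gave 19, 17 and 8.

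Leaving out 1 library at a time gave 10 to 18 for WT cold against WT RT, 10 to 17 for cKO cold against WT cold, 1 to 7 for cKO cold against WT RT, 1 to 4, 1 to 8 and 7 to 9 for m6A over input in WT RT, WT cold and cKO cold, and 0 to 14 for footprints. The lone library left in a group is assumed to vary like the other groups.

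Signs turned in 17 values. In WT cold against WT RT, Col4a1 was 0.36, Col4a2 0.60 and Col5a3 0.58 with median-ratio scaling, and Col5a3 0.043 and Col23a1 0.13 with quantile scaling. Without 1 library, Col4a2 ran from -0.317 to 0.019 and Col5a3 from -0.491 to 0.168, both highest without the second WT cold input. With quantile scaling Col12a1 was -0.032 (input) and -0.058 (footprints) between the cold groups. For m6A over input without 1 library, WT cold values ran from -0.849 to 0.074 for Col1a2, from -0.138 to 1.109 for Col5a1 and from -0.074 to 0.939 for Col6a3, cKO cold values of Col1a2 from -1.121 to 0.070, and the cold change of Col1a1 from -0.130 to 1.271. The cause was not tested. Of the other values, 826 kept direction and call, 84 gained a call or count and 158 lost one. With 2 libraries a group, small changes could not be detected.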
